A study of Mus musculus with 6 samples.

Results

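The Toll-like receptors Tlr1 to Tlr9 and their shared adaptor Myd88 were examined in brown adipose tissue (BAT) of mice that lack the microRNA miR-22. The members were taken by symbol, and every array probe whose RefSeq accession belonged to one of these 10 genes was kept, which gave 17 of the 56605 probes on the array. The family was selected on the higher Tlr1 signal of the KO samples on these same 6 arrays. The KO against WT differences of the members are therefore a description, and counts of member probes past a threshold repeat that choice and test nothing. All samples were BAT of male mice aged 8 weeks, in which 3 mice were wildtype (WT) and 3 were miR-22 knockout (KO). The KO was global, so that cells other than adipocytes lacked the miRNA too. Nothing in the sources used here gave the strain. Each array held the RNA of 1 mouse, labelled with the dye Cy3. The labels name the source as BAT, but the design text also mentions a flow separation whose nature is not given, so whether cells were sorted is unknown.

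Toll-like receptors are innate immune receptors that recognise microbial molecules and some molecules released by damaged tissue. Tlr1, Tlr2, Tlr4, Tlr5 and Tlr6 act at the cell surface, where Tlr1 and Tlr6 each pair with Tlr2 to bind bacterial lipoproteins, whereas Tlr3, Tlr7, Tlr8 and Tlr9 bind nucleic acids inside endosomes. All of them except Tlr3 signal through Myd88, which recruits Irak kinases and leads to NF-kB activation and cytokine transcription. In adipose tissue these receptors are found on resident macrophages and other immune cells as well as on adipocytes.

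The labels give the deleted miRNA as the difference between the groups. Its mature strands, from RefSeq (GRCm38.p6), lie on the plus strand at chr11:75463772-75463793 for miR-22-3p and at chr11:75463734-75463755 for miR-22-5p, inside the host gene Mir22hg. Capitals mark the seed, bases 2 to 8, through which a miRNA pairs with its targets.
mmu-miR-22-3p: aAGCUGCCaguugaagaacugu
mmu-miR-22-5p: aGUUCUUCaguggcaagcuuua

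Mature miR-22 itself was not analysed here, and the nearest measurement was the host transcript. Mir22hg gave a log2 scaled signal of 1.20, 1.69 and 1.21 in the WT samples and 2.02, 2.11 and 2.23 in the KO samples, a difference of 0.75 (SE 0.18; limma, Benjamini-Hochberg adjusted p = 0.11). Whether its probe lies inside the deleted segment was not known, so this value does not check the labels. Scaled signal is the log2 of the processed intensity minus the log2 of that array's 75th percentile, so that a difference of 1 is a doubling.

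Between 55.8% and 66.5% of probes were well above background on each array, and no spot was saturated. Spots marked as feature outliers by the scanner software made up 4.87% to 17.1% of an array, with WT 3 and KO 1 at the high end, and were left out. WT 1 and WT 2 lay in slide row 1, whereas WT 3 and all KO samples lay in slide row 2, so each tested member probe is also given within row 2, as the KO mean minus WT 3. All 9 brown adipocyte markers, Ucp1 included, were well above background on every array. Skeletal muscle markers varied between samples of both groups. Their mean scaled signals were 3.37, 2.57 and -4.88 in WT and 0.86, 4.13 and 2.34 in KO. The row 2 values and the row block thus rest on WT 3, a sample with far less muscle signal than the others.

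Of the 17 member probes, 11 could be tested, which covered 9 of the 10 genes. A further 4 probes, 1 for Tlr4, 1 for Tlr7 and 2 for Tlr8, were not well above background on any array. The remaining 2 probes, for Tlr3 and Tlr4, lost too many spots to outlier marks. Among the 11 tested probes, 9 had a higher mean in KO and 2 a lower mean, and the median difference was 0.59. Over all tested probes 51.7% had a higher mean in KO, and the median difference was 0.016. With the 3 KO values all above the 3 WT values stood 6 probes, where 13.8% of all 31238 tested probes did. At unadjusted p below 0.05 by limma, 6 probes were higher in KO and 0 were lower, where 9.7% and 6.74% of all tested probes were. After Benjamini-Hochberg adjustment both Tlr1 probes were below 0.05, and 0.109% of all tested probes were. Neither Tlr1 probe was below it with quantile normalization, normexp or slide row as a block, or without WT 1, WT 3, KO 1, KO 2 or KO 3. Since this contrast chose the family, nothing is read from these counts.

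**Figure D1:**
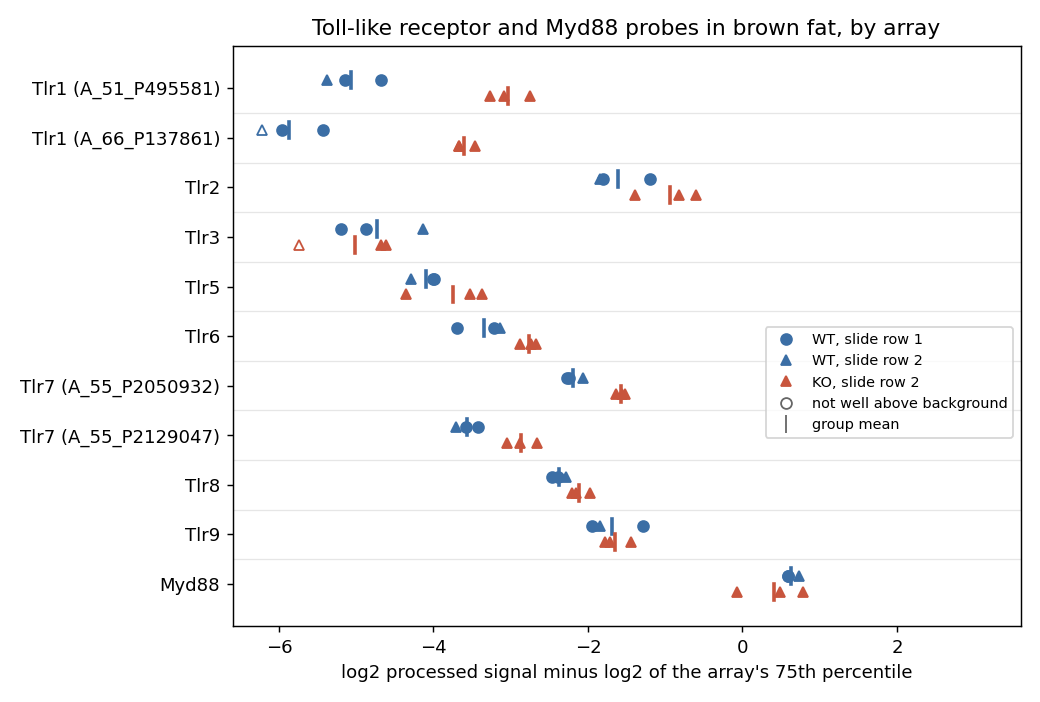
Log2 scaled signal of the 11 tested member probes (horizontal axis) on each of the 6 arrays, with WT in blue, KO in red, circles for slide row 1, triangles for slide row 2, open symbols for spots not well above background and a vertical bar for the group mean. Both Tlr1 probes show the widest gap between the groups, the Tlr6, Tlr7 and Tlr8 probes a narrower gap, and the other probes overlap.

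Tlr1, the receptor that pairs with Tlr2 for triacylated lipoproteins, was measured by 1 probe for each of 2 RefSeq transcripts, on chromosome 5 (GRCm38.p6, chr5:64924680-64933600). For the probe A_51_P495581 the scaled signal was -5.14, -4.68 and -5.38 in the WT samples and -2.75, -3.08 and -3.26 in the KO samples. The processed intensities behind these were 56.1, 56.1 and 38.6 in WT and 378, 311 and 167 in KO. All KO samples lay above all WT samples, with a gap of 1.41 between the highest WT and the lowest KO value. The difference was 2.03 (SE 0.23, n = 3 and 3), or 4.10-fold. Within slide row 2 it was 2.34.

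The second Tlr1 probe, A_66_P137861, gave the same picture at a dimmer signal. Its scaled signal was -5.96, -5.43 and -6.22 in WT and -3.46, -3.67 and -3.67 in KO, and only 2 of the 3 WT spots were well above background. The groups did not overlap, and the difference was 2.27 (SE 0.23). Its row 2 value of 2.62 was set against the WT 3 spot, the one not well above background. Both Tlr1 probes were dim in WT, and the scanner software marked the local background around both as an outlier on all 6 arrays. When spots with such marks were left out too, Tlr1 could not be tested. With normexp background correction the difference was 1.02 in place of 2.03 for the first probe and 0.85 in place of 2.27 for the second. That setting adds an offset of 50 to each intensity, which shrinks log2 differences between dim spots. The processed WT intensities of the first probe lay between 38.6 and 56.1. How much of the change came from the offset was not tested.

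Tlr2, the common partner of Tlr1 and Tlr6, was higher on average in KO with overlapping groups. The scaled signal was -1.19, -1.80 and -1.85 in WT and -0.60, -0.82 and -1.39 in KO. KO 3 lay below WT 1. The difference was 0.68 (SE 0.27), and 0.91 within row 2.

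Tlr6, the other partner of Tlr2, recognises diacylated lipoproteins and lies beside Tlr1 at chr5:64953092-64970942. Its scaled signal was -3.70, -3.22 and -3.14 in WT and -2.68, -2.88 and -2.73 in KO. The groups did not overlap, and the difference was 0.59 (SE 0.19), and 0.37 within row 2. No spot of the Tlr6 probe carried a local background mark, and leaving out such marks kept it at 0.59.

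Tlr4, the lipopolysaccharide receptor, could not be tested. Its bright probe was well above background on all 6 arrays, but 2 WT spots and 1 KO spot carried outlier marks. With the marked spots kept, the scaled signal was -0.03, 0.17 and 0.00 in WT and -0.19, 0.26 and 0.27 in KO, a difference of 0.07. Those groups overlapped.

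Tlr5, the flagellin receptor, had a scaled signal of -4.00, -4.01 and -4.29 in WT and -4.36, -3.37 and -3.53 in KO. KO 2 and KO 3 lay above all WT samples and KO 1 lay below them. The difference was 0.35 (SE 0.28), and 0.54 within row 2. It was 0.65 without KO 1, 0.15 without KO 2, 0.23 without KO 3, 0.17 with normexp and 0.14 with quantile normalization.

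Among the endosomal receptors, Tlr7, which binds single-stranded RNA, was covered by 2 tested probes that moved alike. The first, A_55_P2050932, gave -2.27, -2.25 and -2.06 in WT and -1.56, -1.53 and -1.63 in KO, a difference of 0.62 (SE 0.15) or 1.54-fold. The second, A_55_P2129047, gave -3.42, -3.58 and -3.71 in WT and -2.65, -2.88 and -3.05 in KO, a difference of 0.71 (SE 0.17) or 1.63-fold. Neither probe overlapped between the groups, and within row 2 the differences were 0.49 and 0.85, and normexp gave 0.48 and 0.44. The third Tlr7 probe, of another transcript, was not well above background in any sample.

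Tlr8, the neighbour of Tlr7 on chromosome X (chrX:167241123-167264329, with Tlr7 at chrX:167303380-167330574), showed a smaller difference. Its scaled signal was -2.39, -2.47 and -2.29 in WT and -2.20, -1.97 and -2.15 in KO. The groups did not overlap, and the difference was 0.27 (SE 0.15), or 1.21-fold, with 0.18 within row 2, 0.15 with quantile normalization and 0.10 with normexp. Its other 2 probes were not well above background in any sample, so only 1 of 3 Tlr8 probes informed this value.

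Tlr9, the receptor of unmethylated CpG DNA, and Tlr3, the receptor of double-stranded RNA, overlapped between the groups. For Tlr9 the scaled signal was -1.95, -1.29 and -1.84 in WT and -1.72, -1.77 and -1.45 in KO, a difference of 0.05 (SE 0.22), and 0.19 within row 2. For Tlr3 it was -5.19, -4.88 and -4.14 in WT and -5.75, -4.68 and -4.62 in KO, a difference of -0.28 (SE 0.39), with the KO 1 spot not well above background, and -0.88 within row 2. Another Tlr3 probe lost 2 of its 3 KO spots to outlier marks, and with these kept its difference was 0.25, of the opposite sign.

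Myd88, the adaptor that serves every member receptor except Tlr3, had a lower mean in KO with overlapping groups. Its scaled signal was 0.59, 0.59 and 0.73 in WT and 0.79, -0.07 and 0.49 in KO. The KO samples lay on both sides of the WT samples, and the difference was -0.23 (SE 0.23), and -0.33 within row 2.

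**Figure D2:**
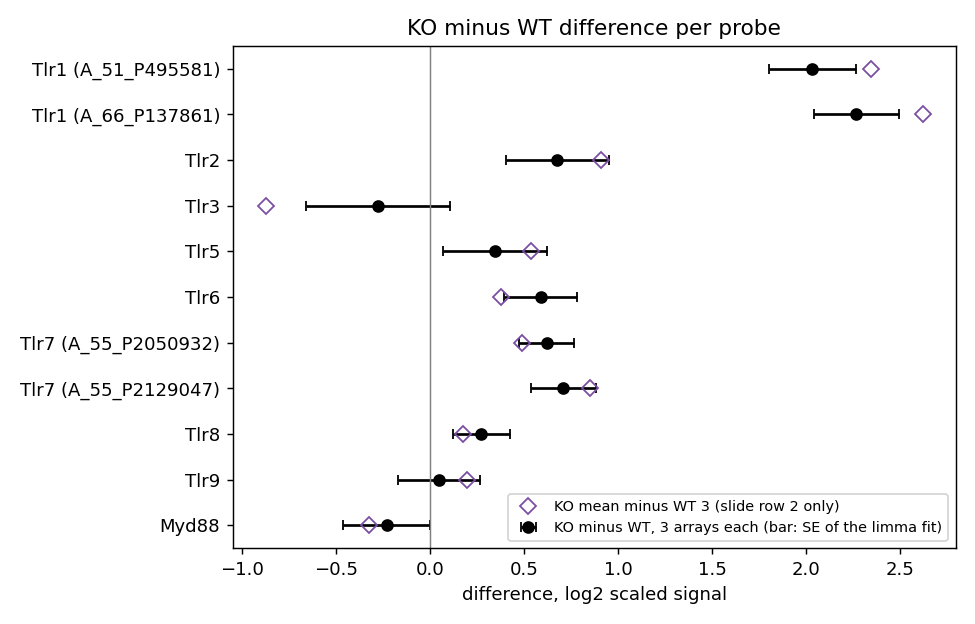
KO minus WT difference in log2 scaled signal (horizontal axis) of each tested member probe, as filled points with the SE of the limma fit (3 arrays per group), and the KO mean minus WT 3 within slide row 2 as open diamonds. The Tlr1 probes stand at 2.03 and 2.27, and the other probes lie between -0.28 and 0.71; the sign within row 2 is that of the full difference for each probe.

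Macrophage markers were on average higher in KO. The mean scaled signal of the 11 macrophage markers with no marked spot was 0.02, 0.24 and 0.33 in WT and 0.51, 0.80 and 0.64 in KO, a difference of 0.45. With every spot kept, all 15 stood at 0.11, 0.26 and 0.38 in WT and 0.50, 0.80 and 0.57 in KO. That difference was 0.38. All 15 listed macrophage markers were well above background on all 6 arrays. Of the 13 that could be tested, 11 had a higher mean in KO, and 5 passed unadjusted p below 0.05 as higher (Fcgr1, C1qb, Aif1, Cx3cr1 and Marco) and 0 as lower. Adgre1 and Cd68, which encode F4/80 and macrosialin, had differences of 0.39 (SE 0.23) and 0.37 (SE 0.20), and Cd68 stood at -0.01 within row 2. The tested markers with a lower mean in KO were Itgam, at -0.35 (SE 0.20), and Csf1r, at -0.01 (SE 0.23). Within row 2 these stood at -0.23 and -0.26. The Itgam probe was the brightest of the tested macrophage markers, with a mean of 4.62 in WT, near the adipocyte marker Cidec at 4.68. Whether this probe read Itgam alone was not tested. Over all tested genes 47.1% had a higher mean in KO, and 10% passed as higher and 8.82% as lower.

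The T and NK cell list also had higher KO values, with -4.28, -3.50 and -3.85 in WT and -3.47, -3.28 and -3.39 in KO over 9 of 10 markers. All 9 had a higher mean in KO, and 3 of them (Cd4, Cd8b1 and Ncr1) passed unadjusted p below 0.05. After Benjamini-Hochberg adjustment 0 macrophage and 0 T and NK cell markers were below 0.05 by limma. For the dendritic cell and B cell lists the differences were 0.32 and 0.33 with overlapping samples. The neutrophil list, with 4 of 9 markers, differed by 0.22. Its KO values of -1.15, -1.32 and -1.28 lay just above its WT values of -1.63, -1.36 and -1.40. Over 5 neutrophil markers with every spot kept, the samples overlapped. There WT stood at -0.95, -0.66 and -0.97, and KO at -0.66, -0.73 and -0.62. Csf3r, the brightest tested neutrophil marker with a mean of 4.18 in WT, was lower in KO at -0.20 (SE 0.21). Not well above background on any array were Xcr1 among the dendritic cell markers, Ms4a1 and Blk among the B cell markers, and Elane, Ltf and Ngp among the neutrophil markers. Only 3 of the 9 brown adipocyte markers had no marked spot, and their mean differed by 0.21 with overlapping samples, whereas all 9 with every spot kept differed by -0.26. In RNA from many cells together, more cells of a type and more RNA per cell cannot be told apart, and the part of these cells in the receptor values was not tested.

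**Figure D3:**
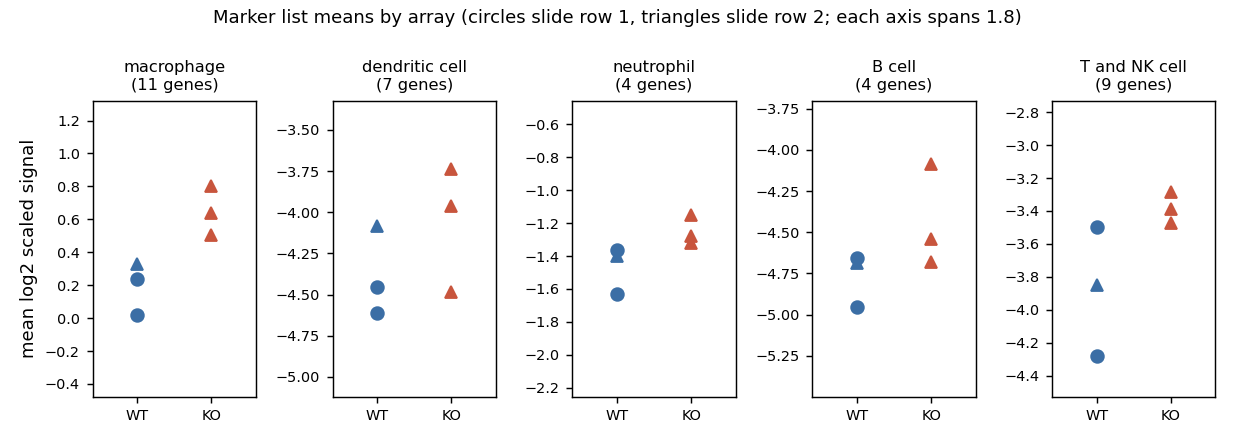
Mean log2 scaled signal of 5 immune cell marker lists (vertical axes, each spanning the same width) on each array, with WT in blue, KO in red, circles for slide row 1 and triangles for slide row 2. Means are over markers with no marked spot. The macrophage, the neutrophil and the T and NK cell means do not overlap between the groups, whereas the dendritic cell and B cell means do. The T and NK cell gap is narrow (-3.50 in WT 2, -3.47 in KO 1), and the neutrophil means overlap with every spot kept.

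The wider pathway was described with 99 further genes in 7 lists, taking for each gene its brightest testable probe. Of these, 80 could be tested, and by limma 15 were higher and 9 lower in KO at unadjusted p below 0.05, with 0 below 0.05 after Benjamini-Hochberg adjustment. Over all 14711 tested genes 10% were higher and 8.82% lower, and 0.184% passed the adjusted threshold. The pathway split was 10 higher and 10 lower with quantile normalization, 11 and 10 with the deposited log2 values, 11 and 2 with slide row as a block, 13 and 3 without WT 1 and 14 and 4 without WT 2. With the row block the calls of Tirap, Sarm1, Irak1, Chuk, Tnfaip3, Nfkbie, Bgn, Sigirr, Il1r2 and Il18r1, all described below, were lost, and Fos and Hspa1b could not be fitted. The median difference was -0.09 over the pathway genes and -0.03 over all genes.

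Tlr13, a mouse receptor of bacterial ribosomal RNA, was the only one of the other 3 Toll-like receptors that could be tested. Its scaled signal was -2.01, -1.72 and -1.88 in WT and -0.98, -0.92 and -0.73 in KO. The groups did not overlap, and the difference was 0.998 (SE 0.15; limma adjusted p = 0.056), with 1.01 within row 2. Of the accessory and trafficking proteins, 9 of 12 were tested and 0 passed in either direction. Their differences ran from -0.47 to 0.28, with a median of -0.20, and 4 were higher in KO. Lowest were Cd180 (SE 0.37) and Ly96 (SE 0.23), both at -0.47. The Ly96 probe was the brightest of the tested accessory genes, with a mean of 5.32 in WT. Cd14, the co-receptor of Tlr4, stood at 0.03 (SE 0.14). Unc93b1, which carries the endosomal receptors out of the endoplasmic reticulum, stood at 0.02 (SE 0.18). All of these were named outside the naming rule given below.

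Among adaptors and proximal kinases, 22 of 24 were tested, 3 were higher and 3 lower, and the median was -0.18. Higher were the kinase Irak2, by 1.02 (SE 0.24), the bridging adaptor Tirap, by 0.54 (SE 0.18), and the kinase Ikbke, by 0.68 (SE 0.28). For Irak2 the value became -0.26 when outlier marks were ignored, since a brighter probe then stood for the gene. Lower were Sarm1, an adaptor known for its NAD-cleaving activity, at -0.57 (SE 0.19), Irak1 at -0.43 (SE 0.15) and Chuk, a subunit of the IkB kinase, at -0.37 (SE 0.15). Ikbke overlapped between the groups and lost its call in 13 of 18 other settings, with 0.10 under normexp and 0.44 under quantile normalization. Without KO 2 or KO 3, too few unmarked KO values were left for the Chuk probe given here. Another Chuk probe then stood for the gene, at 0.54 without KO 2 and 0.34 without KO 3.

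Of transcription factors and feedback inhibitors, 18 of 19 were tested, 3 were higher and 2 lower. Irf5, a factor that acts downstream of Tlr7 and Tlr9, was higher by 0.72 (SE 0.21). With marked spots kept, a brighter Irf5 probe stood for the gene and was lower in KO, at -0.73. The 2 Irf5 probes thus differed in sign. Tnfaip3 and Nfkbie, which both restrain NF-kB, were higher by 0.65 (SE 0.22) and 0.44 (SE 0.17). Nfkbie lost its call in 10 of 19 other settings. Rel, a subunit of NF-kB, was lower at -1.03 (SE 0.27), and only 1 of its 3 KO spots was well above background. Fos, a subunit of AP-1, was lower at -0.98 (SE 0.26) over 2 unmarked spots per group, and stood at -0.24 with marked spots kept, where the call was lost.

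Inflammatory target genes were tested for 18 of 25, of which 16 had a higher mean in KO, 5 passed as higher and 0 as lower. Over all tested genes 47.1% had a higher mean, 10% passed as higher and 8.82% as lower. The median difference of the list was 0.47. Cd86, a costimulatory molecule of antigen-presenting cells, had a scaled signal of -3.29, -3.35 and -3.61 in WT and -2.54, -2.41 and -2.43 in KO, a difference of 0.96 (SE 0.14; limma adjusted p = 0.057). Averaged over the testable Cd86 probes, the difference was 0.58. Ccl4, a chemokine, was higher by 2.24 (SE 0.54) and Lcn2, an iron-binding protein, by 0.57 (SE 0.15). The remaining 2 of the 5, named after their values were seen, were Tnf at 0.87 (SE 0.25) and Cxcl2 at 1.53 (SE 0.61). Cxcl2 overlapped between the groups, with WT 1 at -3.70 above KO 2 at -3.77. Il1b and Il6, also named after their values were seen, were the only 2 tested targets with a lower mean, at -0.63 (SE 0.38) and -0.58 (SE 0.56).

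Proteins proposed as endogenous ligands went both ways. The proteoglycan Bgn was higher by 0.71 (SE 0.26), whereas the heat shock proteins Hspa1a and Hspa1b were lower at -1.89 (SE 0.33) and -1.57 (SE 0.28). These 2 genes are nearly identical in sequence, so their probes may not separate them. Of the interleukin 1 receptor relatives, most of which share the Toll/interleukin 1 receptor domain, Il1rl1 and Sigirr were higher by 0.96 (SE 0.21) and 0.47 (SE 0.19). Il1r2 and Il18r1 were lower at -0.51 (SE 0.18) and -0.53 (SE 0.20). Sigirr overlapped between the groups and lost its call in 13 of 19 other settings, and Il18r1 lost its call in 9 of 17. Averaged over its testable probes, Il1r2 stood at -0.26.

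**Figure D4:**
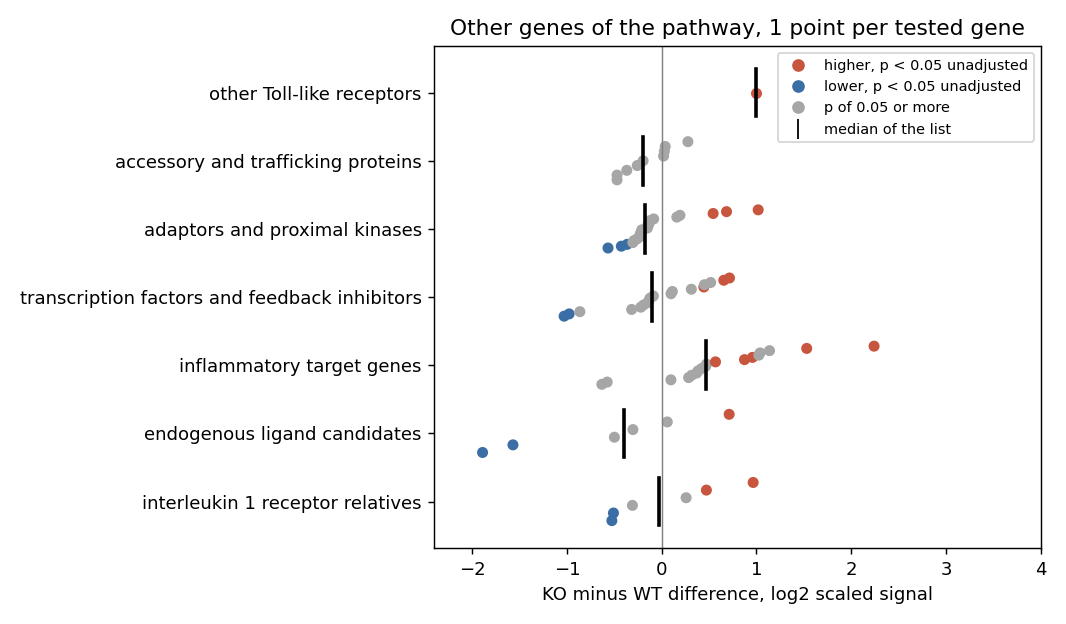
KO minus WT difference in log2 scaled signal (horizontal axis) of the 80 tested pathway genes, 1 point per gene, by list, with red and blue points for genes higher and lower at unadjusted p below 0.05 and a black bar for the list median. The inflammatory target genes have a median of 0.47, with 16 of 18 points above 0, whereas the adaptors and kinases lie around -0.18. Of all tested genes, 47.1% lie above 0.

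The genes whose pattern over the 6 arrays was most like that of the brighter Tlr1 probe were Zfp334 (Pearson r = 0.997), Rbpj (0.995), C1ql2 (0.994), Spata13 (0.993) and Wtip (0.992), out of 9568 genes detected on every array with no marked spot. The 6 points share the split into 3 WT and 3 KO samples, and the groups did not overlap for any of these 5 genes. Their KO minus WT differences were 0.72, 0.42, 1.19, 0.57 and 0.33.

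The difference at the Tlr1 and Tlr6 pair was set beside those of the nearest tested genes on each side. Gm3716, Gm38457 and Klf3 stood at 0.02, 0.41 and -0.12, and Fam114a1, Klhl5 and Wdr19 at 0.24, -0.54 and 0.00. Only Klhl5 passed unadjusted p below 0.05, as lower. Around the Tlr7 and Tlr8 pair the 6 neighbours lay between -0.19 and 0.36, and 0 passed.

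Since Tlr1 had the widest difference, its 2 promoter windows from RefSeq (GRCm38.p6, minus strand, 250 bases before to 50 after each start, written 5′ to 3′ on the gene's strand) are shown. They lie at chr5:64933509-64933808 and at chr5:64932650-64932949. Searched on both strands were the PU-box GAGGAA, the core of the site of the myeloid factor PU.1, the AP-1 site TGANTCA and the NF-kB consensus, which held no overlapping matches with each other in the windows shown. Capitals mark matches.
Tlr1 upstream start: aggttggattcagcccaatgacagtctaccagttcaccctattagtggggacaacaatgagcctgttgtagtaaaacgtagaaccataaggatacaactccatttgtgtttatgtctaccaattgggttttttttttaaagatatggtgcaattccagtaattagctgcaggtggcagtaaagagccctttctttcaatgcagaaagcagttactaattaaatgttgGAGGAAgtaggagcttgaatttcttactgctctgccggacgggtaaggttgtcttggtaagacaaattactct
Tlr1 downstream start: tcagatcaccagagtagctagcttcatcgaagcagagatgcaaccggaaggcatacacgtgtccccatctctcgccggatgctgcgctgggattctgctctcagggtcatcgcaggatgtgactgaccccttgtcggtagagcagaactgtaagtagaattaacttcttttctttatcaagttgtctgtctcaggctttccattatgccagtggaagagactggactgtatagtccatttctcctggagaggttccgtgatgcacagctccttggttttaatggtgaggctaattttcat
The first window held 1 PU-box and the second held no match. Among all 32851 windows of the same length, 28.3% held a PU-box, 7.81% the AP-1 site and 4.51% the NF-kB consensus. Windows were given for 8 of the 10 members, 10 windows in all, of which 3 held a PU-box (Tlr1, Tlr8 and Tlr9), 1 the AP-1 site (Tlr9) and 2 the NF-kB consensus (Tlr2 and Tlr3). Tlr6 held none of them in either of its windows.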

How the data were processed

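BAT RNA of 3 WT and 3 KO mice was hybridised to Agilent mouse (V2) arrays with 1 colour. Per the file headers, the authors deposited intensity values from Feature Extraction (11.5.1.1 in the headers, 10.7 in the submitters' processing notes), in which the processed signal is background-corrected and on a linear scale. The authors also deposited normalized log2 values for 27497 probes. Their scaling steps were not stated, and each column correlated best with its own array. They were used as an alternative.

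Processed intensities were log2 transformed and centred on the 75th percentile of each array. Testing required a signal well above background on 3 or more arrays and 2 or more unmarked values in each group. Differences were fitted with lmFit and eBayes of limma 3.58.1 in R 4.3.3, with Benjamini-Hochberg adjustment over all tested features. Probes were named through the RefSeq accession in the files and a gene table (GRCm38.p6), which matched 33767 of 56605 probes. The members, gene lists and tests were chosen with earlier results of these data known. Named were all member probes, the up to 3 genes per pathway list and direction with the smallest p below 0.05, the 5 genes most like Tlr1, 3 neighbours per side, and Mir22hg.

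The plan left out spots with feature or local background outlier marks. Since local background marks fell on 22.8% to 37.7% of spots and on both Tlr1 probes in all samples, the main values leave out feature marks only. This was decided after seeing the data, and the planned setting is given as an alternative. The scripts were tested on simulated data. The methods named SAM at an unadjusted threshold, which was run as an alternative. With 6 arrays, their number limits the precision.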

Additional observations from a re-analysis of the deposited data

How the results depend on the processing

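The Tlr1 difference (2.03, brighter probe) moved to 1.02 with normexp background correction and its offset of 50. For the dimmer probe it was 0.85 in place of 2.27. The brighter probe ranged from 1.88 to 2.23 when 1 array was left out. Neither Tlr1 probe could be fitted with local background marks left out. That setting left 4 member probes, 2 of them higher in KO, in place of 9 of 11. Under that setting 3013 probes, 1783 genes and 14 of 60 pathway genes passed unadjusted p below 0.05, against 5135, 2773 and 24 of 80. With slide row as a block, which sets the KO samples against WT 3 alone, these were 2254, 1110 and 13 of 74. Leaving out 1 WT array or KO 1 kept Chuk (-0.37) between -0.40 and -0.34. Without KO 2 or KO 3 another Chuk probe stood for the gene, at 0.54 and 0.34. Keeping marked spots gave -0.26 for Irak2 and -0.73 for Irf5, where a brighter probe stood for each gene. Of the members, Tlr9 changed sign in 6 of 16 settings, Tlr3 in 2 of 15 and Myd88 in 1 of 16. Apart from these probe changes, the causes were not tested. Of the probes passing, 59.0% were higher in KO, but 39.9% with quantile normalization, 41.7% with normexp, 38.8% with the deposited log2 values, 72.1% with no filter on dim probes and 74.9% with the row block. For genes the share was 53.2%, and 40.4% with normexp and 42% with the deposited values. Genes below adjusted p 0.05 numbered 27 by limma, 283 with trend and robust, and 0 by SAM (1127 higher and 753 lower unadjusted) and without KO 2 or KO 3, where 2219 and 2569 passed unadjusted p below 0.05. Both Tlr1 probes passed the adjusted threshold under the main setting, and neither did with quantile normalization, normexp, no filter on dim probes, the row block or 1 array left out, except without WT 2, where 1 did. Both were dim in WT. The brighter probe was well above background on all 3 WT arrays. The dimmer probe was so on only 2, near the limit of detection.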
